A study of Mus musculus with 2 samples.

Results

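Premyelinating oligodendrocytes (pre-OLs) of the mouse cerebral cortex were described here in 2 droplet-based scRNA-seq libraries, in which 912 of 17653 barcodes met the rule for this stage. A barcode was a member when it held at least 1 UMI (a unique molecular identifier, which counts an RNA molecule) of at least 4 of the 8 genes *Bcas1*, *Enpp6*, *Tns3*, *Bcas1os2*, *9630013A20Rik*, *Abtb2*, *St18* and *Fa2h*. It also had to hold fewer than 4 of 8 genes of mature oligodendrocytes (OLs: *Mog*, *Mobp*, *Mag*, *Aspa*, *Mal*, *Cldn14*, *Sec14l5* and *Opalin*), fewer than 4 of 5 genes of oligodendrocyte precursor cells (OPCs: *Pdgfra*, *Lhfpl3*, *Cspg4*, *Stk32a* and *Megf11*) and no more than 2 UMIs of *Slc17a7*, *Gad1* and *Gad2* together. Members numbered 187 of the 9540 Control barcodes and 725 of the 8113 barcodes from cortex with white matter injury (WMI). Members were thus chosen by the values of these genes, which are given as a description only.

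Each condition had 1 library, made with the 10x Genomics system from C57BL/6 mice 2 weeks old. By the labels, the right common carotid artery was ligated on postnatal day 7 under 1 h of hypoxia, and cortex was taken on day 14, from the ligated side for WMI and from the side that corresponds to it for Control. The labels and the methods of the study differ on the days, on the length of hypoxia, on whether nuclei or dissociated cells were loaded, on the number of replicates and on where the Control cortex came from, for which the study names both sham cortex and the uninjured side. The labels were followed here. The study set these libraries side by side to ask which OL stages, and which genes within them, differ after WMI. Since each condition had 1 library, no test was run, no difference has a replicate check, and every interval is an exact 95% interval that covers counting error only.

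The libraries stood apart in more than the condition. The median passing barcode held 4727.5 UMIs in Control and 5267 in WMI, and its mitochondrial share was 0.0628% in Control and 0.458% in WMI. No Control member held a UMI of *Xist*, which is transcribed from the inactive X chromosome of female cells, and 154 of them held Y-linked UMIs. Of the WMI members, 232 held *Xist* and no Y-linked UMI, 168 held Y-linked UMIs and no *Xist*, and 267 held both. The sex of the mice and the condition therefore cannot be told apart by the libraries as a whole, and levels were repeated in members with Y-linked UMIs only. The libraries shared 34 passing barcode sequences, of which 0 were members in both.

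Pre-OLs are the stage between dividing OPCs and myelinating OLs. OPCs that leave the cell cycle lose *Pdgfra* and *Cspg4*, pass through a short state marked by the receptor *Gpr17* and by *Bcas1* and *Enpp6*, extend many processes over axons, and then either form myelin sheaths or die. The regulators *Olig1*, *Olig2*, *Sox10* and *Nkx2-2* act through this step, and *Myrf* and *Tcf7l2* are known to drive the later myelin programme. In perinatal WMI the passage from OPC to mature OL is the step usually described as disturbed.

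The promoter sequences below, spanning 250 bases upstream of the annotated start in RefSeq on GRCm38.p6, are shown because *Enpp6* is the rule gene with the highest ratio over OPCs in Control, and *Bmp4* and *Nkx2-2* are genes outside the rule that were highest in pre-OLs and differed between the libraries. *Enpp6* lies on the plus strand (chr8:46986637-46986886), *Bmp4* on the minus strand (chr14:46390670-46390919) and *Nkx2-2* on the minus strand (chr2:147186403-147186652). Capitals mark matches, on either strand, to the SOX motifs ACAAAG and ACAATG and to the E-boxes CAGCTG and CAGATG, the kinds of site that SOX10 and OLIG2 can bind. The *Nkx2-2* window precedes the RefSeq start and lies inside the longer gene model of GENCODE M21. The sequences read 5′ to 3′ on the strand of the gene.
Enpp6: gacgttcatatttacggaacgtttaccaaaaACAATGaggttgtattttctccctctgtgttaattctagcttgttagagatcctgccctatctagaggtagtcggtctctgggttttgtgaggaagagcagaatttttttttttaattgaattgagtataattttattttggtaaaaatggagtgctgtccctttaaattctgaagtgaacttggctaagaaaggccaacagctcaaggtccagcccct
Bmp4: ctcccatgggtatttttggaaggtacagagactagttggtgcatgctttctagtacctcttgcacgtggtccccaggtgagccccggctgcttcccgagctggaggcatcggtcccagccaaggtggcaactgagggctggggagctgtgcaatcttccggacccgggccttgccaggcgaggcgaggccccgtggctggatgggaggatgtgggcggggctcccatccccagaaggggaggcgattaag
Nkx2-2: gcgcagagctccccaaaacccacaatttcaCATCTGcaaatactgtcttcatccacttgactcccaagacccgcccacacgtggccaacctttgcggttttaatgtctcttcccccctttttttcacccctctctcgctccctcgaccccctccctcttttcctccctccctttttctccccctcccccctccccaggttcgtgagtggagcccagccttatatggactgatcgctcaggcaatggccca
*Enpp6* held ACAATG at position -219 from the start, *Nkx2-2* held CAGATG on its opposite strand at position -220, and in *Bmp4* these letters did not occur in this window. Either SOX motif was found in 25.2% and either E-box in 25.5% of 32851 promoter windows of this length, so that such a match is common. Promoters were matched for 11 of 17 genes sought, and those of *Bcas1*, *St18*, *Gpr17*, *Eya2*, *Fa2h* and *Sox10* were not used here.

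The members were a graded set, and the lower end of it went against the label. Of the barcodes with 8 of the 8 rule genes, 81.5% in Control and 84.0% in WMI held at least 2 of 7 OL-lineage genes that the rule did not use (*Sox10*, *Olig1*, *Olig2*, *Nkx2-2*, *Myrf*, *Zfp488* and *Sox8*). At 6 genes these shares were 61.9% and 63.9%, at 5 genes 60.0% and 37.3%, and at 4 genes 18.5% and 11.5%. Barcodes just outside the rule, with 3 of the 8 genes, held them in 5.15% of 291 Control and 7.35% of 667 WMI barcodes, whereas just inside it, at 4 genes, there were 54 Control and 252 WMI members. Members with 4 or 5 genes (74 in Control and 370 in WMI) also held more astrocyte RNA than those with 6 to 8 genes, 5558 and 4369 CPM (the UMIs of a gene or list per 1000000 UMIs of the barcodes) against 1405 and 1005. They are called here by their number of genes and not by a cell type. Members with 6 to 8 genes (113 Control and 355 WMI barcodes, a limit set after these values were seen) are called pre-OL-like. Of these, 97.3% and 93.8% fell in clusters, made without the rule genes, in which at least 30% of barcodes held the lineage genes, against 47.3% and 34.3% of members with 4 or 5 genes.

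**Figure D1:**
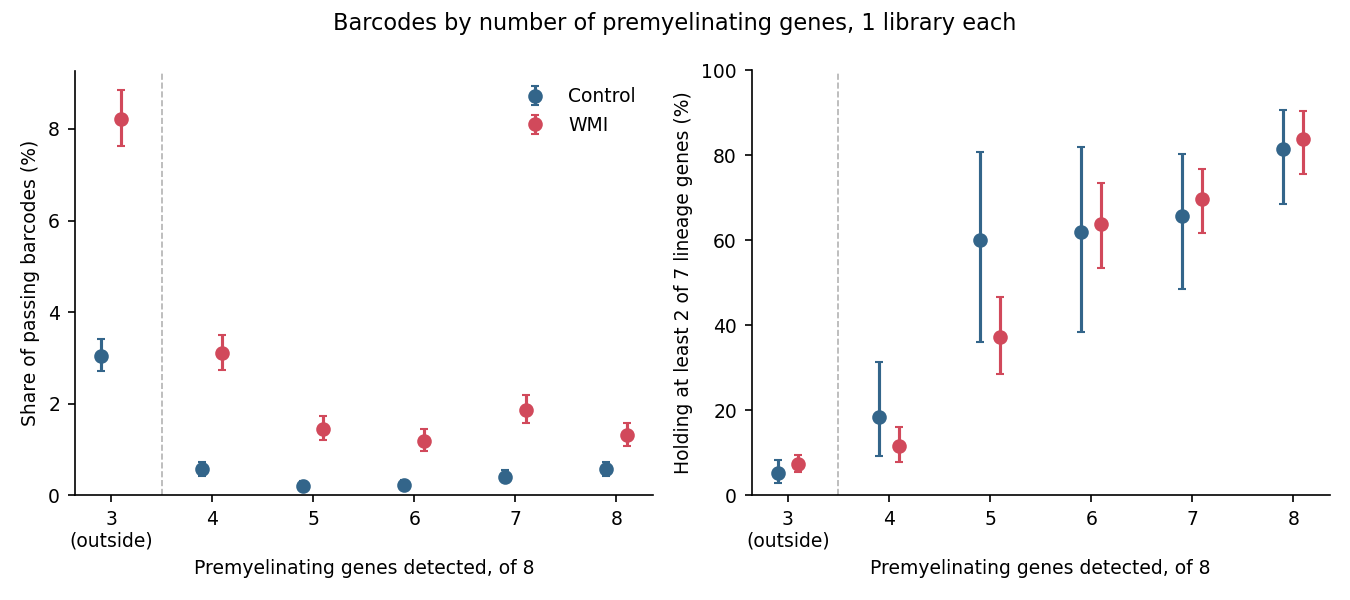
Barcodes by the number of the 8 premyelinating genes detected (x axis, with 3 of 8 just outside the rule). The left panel gives their share of passing barcodes and the right panel the percentage holding at least 2 of 7 lineage genes, as points with exact 95% intervals for 1 library each. The lineage share climbs from 18.5% (Control) and 11.5% (WMI) at 4 genes to 81.5% and 84.0% at 8 genes.

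Members made up 1.96% of Control barcodes (95% interval 1.69 to 2.26) and 8.94% of WMI barcodes (8.32 to 9.58), a ratio of 4.56 (3.88 to 5.38). Pre-OL-like barcodes alone made up 1.18% and 4.38%, a ratio of 3.69 (2.98 to 4.61). By tier, the ratio was 2.31 (1.65 to 3.27) at 8 genes, 4.70 at 7 genes and 5.43 at 6 genes, and 5.88 (4.57 to 7.65) at 4 or 5 genes together. With every barcode thinned to 2000 UMIs, members made up 1.93% and 6.79% and pre-OL-like barcodes 1.06% and 3.40% (ratio 3.21). Barcodes with at least 3 UMIs of *Slc17a7*, the vesicular glutamate transporter of excitatory neurons, should lack the rule genes, yet 4 or more of them were found in 2.96% of these in Control and 10.8% in WMI (median 10397 and 11595.5 UMIs). At 6 or more genes these were 0.908% and 2.57%, and after thinning 0.393% and 0.556%. Barcodes with at least 4 of 10 microglia markers held 6 or more rule genes in 0.201% of 498 Control and 4.25% of 2590 WMI barcodes, and after thinning in 0.213% and 2.32%. Conversely, 0.885% of Control and 25.6% of WMI pre-OL-like barcodes held at least 4 microglia markers, and without these the shares were 1.17% and 3.25%, a ratio of 2.77 (2.21 to 3.49). The share was thus higher in WMI in each of these counts and tiers. The ratio was 2.31 in the tier with 8 genes, which held the most lineage genes, and 5.88 with 4 or 5 genes, and the part that RNA of other cells has in the shares was not tested.

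Within the OL lineage, the members were set against OPC barcodes (at least 4 of the 5 precursor genes) and mature OL barcodes (at least 4 of the 8 mature genes). In Control there were 187 members, 152 OPC and 90 mature OL barcodes, and in WMI 725, 200 and 53. Members were therefore 43.6% of these barcodes in Control (95% interval 38.8 to 48.4) and 74.1% in WMI (71.3 to 76.9). The ratio of these shares was 1.70 (1.45 to 2.01), and with at least 6 rule genes the shares were 26.1% and 48.6%. For each OPC barcode there were 1.23 members in Control and 3.63 in WMI, and with at least 6 rule genes 0.491 and 1.10. In that count the OPC barcodes also rose, to 230 and 323, since fewer barcodes (9 and 18) then met several rules. A further 87 Control and 141 WMI barcodes met several of the rules and were counted apart. They held on average 4.57 and 4.51 of the precursor genes and 0.379 and 0.206 of the mature genes. Mature OL barcodes were not set apart in this way, although 84 of 90 in Control and 48 of 53 in WMI also held at least 4 rule genes. Of the OPC barcodes, 0 of 152 and 0 of 200 did.

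Genes outside the rule set the pre-OL-like barcodes off from the stages on either side in both libraries. Levels in CPM are summed over the barcodes of a stage within a library, and the comparisons with OPC and with mature OL barcodes share the pre-OL-like barcodes. Among 4543 genes with at least 100 UMIs, 12.7% were at least 1.5-fold higher and 9.49% at least 1.5-fold lower than in OPC barcodes of both libraries, and 18.5% and 7.86% against mature OL barcodes. Over all members, with 7289 genes, these shares were 7.38% and 4.53% against OPC and 25.2% and 7.92% against mature OL barcodes. *Eya2*, a transcriptional coactivator and phosphatase, was at 149 and 116 CPM in Control and WMI pre-OL-like barcodes, at 2.36 and 4.78 in OPC and at 4.02 and 6.41 in mature OL barcodes. *Bmp4*, a secreted ligand of the BMP pathway, was at 171 and 264 CPM in pre-OL-like, 5.90 and 16.2 in OPC and 2.68 and 19.2 in mature OL barcodes. Both genes were many times higher at this stage than in the barcodes of either neighbouring stage. *Fam163a* and *Nhsl2* had the same profile, with log2 ratios over OPCs of 4.41 and 3.82 in Control and 3.85 and 3.54 in WMI. All these genes were picked by their ratios over both stages in these data, so that their peak is fixed by the choice.

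Other genes among the 15 with the highest smaller ratio over both stages shared this peak. *Epb41l2*, which links the membrane to the actin skeleton, was at 1942 and 2315 CPM in pre-OL-like barcodes against 122 and 224 in OPC and 96.4 and 218 in mature OL barcodes. *Ust*, a sulfotransferase of glycosaminoglycan chains, was at 2619 and 2321 CPM against 221 and 269 in OPC and 191 and 271 in mature OL barcodes. *Tmem108*, a transmembrane protein, was at 2967 and 3257 CPM against 347 and 375 in OPC and 241 and 463 in mature OL barcodes. That these genes stood above both neighbouring stages is fixed by how they were picked. *Arhgap24*, a GTPase-activating protein for Rac, was at 1652 and 1563 CPM against 189 and 249 in OPC and 8.03 and 64.1 in mature OL barcodes. *Slc5a7* (a choline transporter), *Pdcd4* (a translation inhibitor) and *Rhbdl2* (a membrane protease) were also among the 15 genes, as were the rule genes *Bcas1* and *Bcas1os2*.

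Among the regulators, *Nkx2-2* (chr2:147177546-147194243 on GRCm38, GENCODE M21) was at 76.0 and 151 CPM in pre-OL-like barcodes, 21.3 and 40.1 in OPC and 5.35 and 6.41 in mature OL barcodes. *Tcf7l2*, the Wnt pathway effector, was at 1904 and 1655 CPM against 124 and 157 in OPC barcodes in both libraries, but in mature OL barcodes it was at 340.0 in Control and 1289.8 in WMI. The peak over mature OLs was therefore clear in Control (log2 ratio 2.48) and small in WMI (0.36). *Frmd4a*, a scaffold of cell polarity, was also higher in WMI than in Control mature OL barcodes, at 1238 CPM in Control and 3534 in WMI, but stayed under its pre-OL-like levels of 14712 and 10637 CPM. The mature OL barcodes were not limited in the premyelinating rule genes. After thinning, 5.62% of them in Control and 19.2% in WMI held at least 6 of these genes. The part that such barcodes have in the mature OL levels of *Tcf7l2* and *Frmd4a* was not tested.

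**Figure D2:**
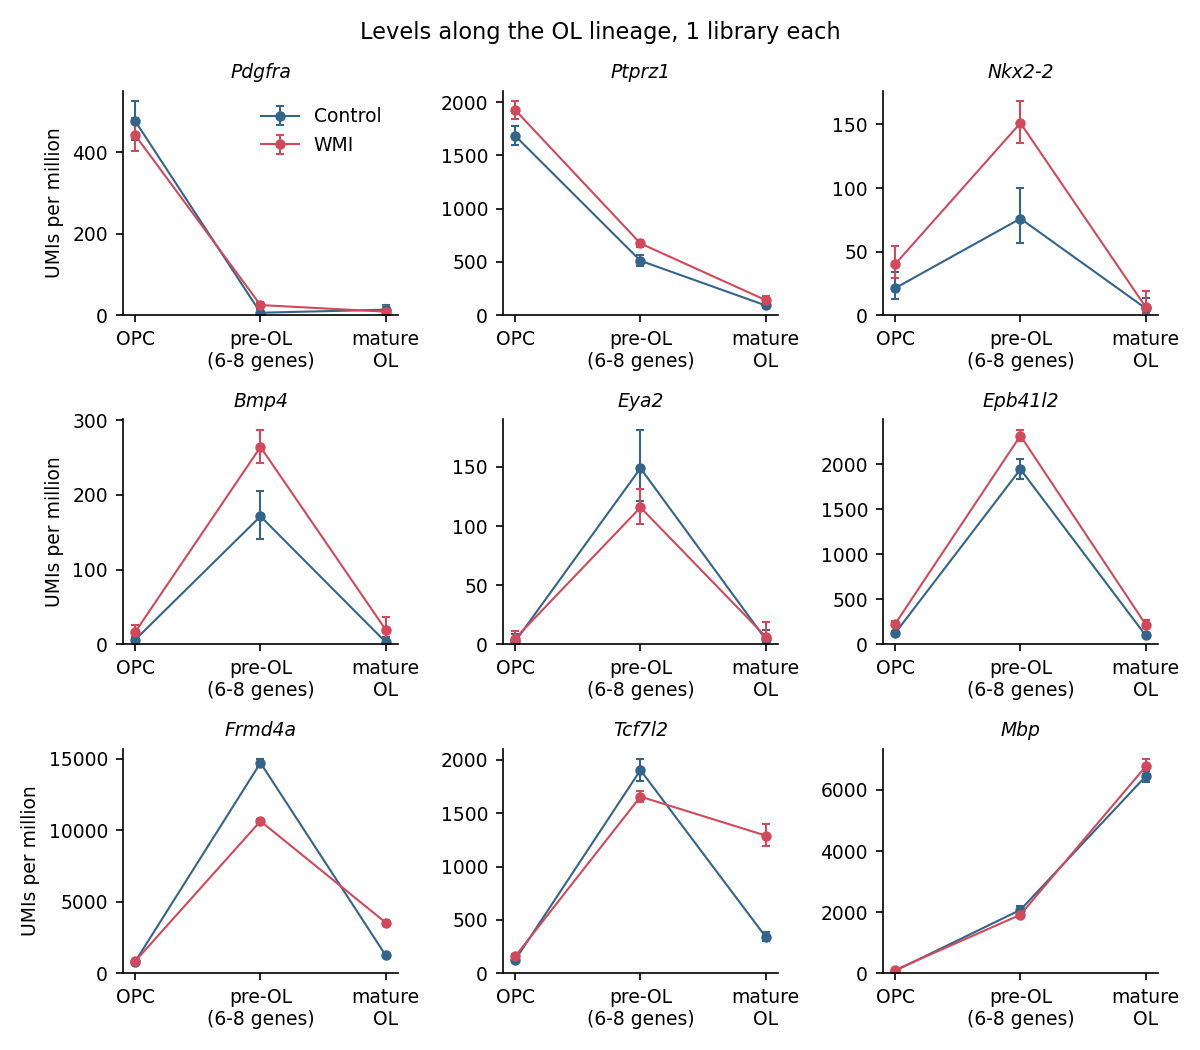
Levels of 9 genes (y axes, CPM, each from 0) in OPC, pre-OL-like (6 to 8 rule genes) and mature OL barcodes of the Control and WMI libraries, with exact 95% Poisson intervals of 1 library each. *Bmp4*, *Eya2*, *Epb41l2* and *Nkx2-2* are highest at the pre-OL stage in both libraries, *Pdgfra* is highest in OPC barcodes, and *Mbp* is highest in mature OL barcodes.

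Pre-OL-like barcodes ranged from close to OPCs to close to mature OLs. Position was read from 12 early genes (*Gpr17*, *Neu4*, *Bmp4*, *Vcan*, *Ptprz1*, *Cspg5*, *Matn4*, *C1ql1*, *Sox6*, *Tnr*, *Luzp2* and *Dscam*) and 12 late genes (such as *Mbp*, *Cnp*, *Cldn11*, *Ugt8a* and *Sirt2*), as the share of late UMIs among both. This late share was 4.32% and 4.97% in OPC and 87.9% and 83.8% in mature OL barcodes of Control and WMI. In pre-OL-like barcodes it was 25.6% (95% interval 24.8 to 26.3) in Control and 22.1% (21.8 to 22.5) in WMI. Over single barcodes it ran from 1.43% to 71.4% with a median of 23.4% in Control, and from 1.25% to 85.2% with a median of 20.5% in WMI. The libraries overlapped over nearly all of this range, with a difference of -3.43 points in the pooled share. Over all members the pooled share was 22.5% and 20.0%, a difference of -2.51 points (-3.22 to -1.81). Over single member barcodes with at least 10 such UMIs, the medians were close, at 17.4% in Control and 17.0% in WMI. Their quartiles were 7.95% and 31.5% in Control and 8.47% and 27.8% in WMI. In members with 4 or 5 genes the pooled share went the other way, at 9.84% (8.85 to 10.9) in Control and 12.7% (12.1 to 13.2) in WMI.

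When the pre-OL-like barcodes of both libraries were split into 3 bins of late share, at about 16% and 28%, the bin with the highest shares held 47 of 113 Control barcodes (41.6%) and 109 of 355 WMI barcodes (30.7%). The bin with the lowest held 33.6% and 33.2%. Along these bins, *Gpr17* was at 191, 117, 53.4 CPM in Control and 408, 269, 149 in WMI, and being an early gene it helped to define them. *Nkx2-2*, which did not, also stepped down, from 127 over 70.5 to 39.2 CPM in Control and from 209 over 153 to 83.6 in WMI. *Nkx2-2* was higher in WMI within each bin. *Frmd4a* stepped up, from 3876 over 15355 to 22828 CPM in Control and from 1505 over 10443 to 21151 in WMI, so that its levels in the libraries were close in the last bin and apart in the bins before it. *Tcf7l2*, *Nfasc* (the axon-glial adhesion molecule neurofascin), *Sema4d* and *Zfp536* also stepped up in both libraries, and *Fyn*, the kinase of the axonal contact signal, showed no steady step, at 3104, 3834, 2886 CPM in Control and 3019, 3155, 2955 in WMI.

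**Figure D3:**
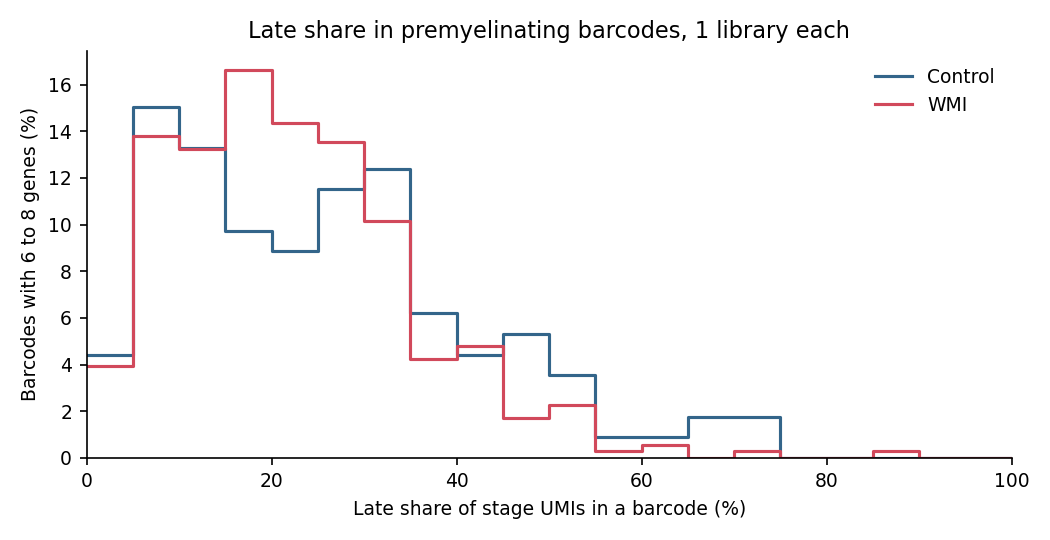
Distribution of the late share of stage UMIs (x axis, in %) over pre-OL-like barcodes, as the percentage of the 113 Control or 355 WMI barcodes in each bin of 5 points (y axis). The curves overlap, with a median of 23.4% in Control and 20.5% in WMI, and 7.08% of Control and 2.82% of WMI barcodes lie above 50%.

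The members of the WMI library were then compared with those of the Control library, gene by gene, over 1084851 and 4377638 UMIs for Control and WMI. Of 7289 genes with at least 100 UMIs, 729 (10.0%) were at least 1.5-fold higher in WMI and 260 (3.57%) at least 1.5-fold lower, and the median log2 ratio was 0.05. In pre-OL-like barcodes, with 671358 and 2176818 UMIs, 339 of 4543 genes (7.46%) were higher and 213 (4.69%) lower, with a median of 0.04. These shares are the background for every list below. *Il6st*, *Thrb*, *Lpar1*, *Map7*, *Sept4*, *Tubb4a*, *Wasf1*, *Vegfa*, *Ftl1*, *Mki67* and *Top2a* were singled out after their values were seen. A ratio past 1.5-fold is a size and not a test. Below, a pair of CPM values gives Control and then WMI, and brackets hold the log2 ratio of WMI to Control with its 95% interval.

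Early genes leaned to WMI in pre-OL-like barcodes and less so over all members. In the 113 Control and 355 WMI pre-OL-like barcodes, 11 of the 12 early genes had a log2 ratio above 0, with a median of 0.29, and 3 were past 1.5-fold, against 7.46% of all genes. Over all members 7 of 12 were above 0 and 2 past 1.5-fold (median 0.10), and the summed level of the list was 12129.8 and 11470.3 CPM in Control and WMI, lower in WMI. *Gpr17*, a G protein-coupled receptor that is switched off before myelination, was at 115 and 279.8 CPM in Control and WMI pre-OL-like barcodes. It was higher in WMI, with a log2 ratio of WMI to Control of 1.29 (0.94 to 1.65), against 0.65 (0.41 to 0.90) in *Slc17a7* barcodes, where it was at 10.8 and 17.0 CPM. *Matn4*, a matrix protein of OPCs, was at 31.3 and 84.5 CPM (log2 ratio 1.43, 0.78 to 2.16) and *Bmp4* at 171 and 264 CPM (0.62, 0.33 to 0.93). *Bmp4* was under the 1.5-fold size over all members (0.34). *Gpr17* lies within *Lims2* on the other strand, and since the counting by strand is not given in the sources used here, reads of these overlapping genes cannot be told apart. The same holds for *Nkx2-2* and its antisense gene *Nkx2-2os*, for *Bmp4* and *Gm15222*, and for *Bcas1* and *Bcas1os2*. *Lims2* itself went the other way (-0.70). *Vcan*, *Ptprz1* and *Sox6*, which OPCs use in matrix, adhesion and transcription, were higher in WMI pre-OL-like barcodes by log2 ratios of 0.46, 0.40 and 0.38.

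The lineage transcription factors went both ways. Of 21 measured in pre-OL-like barcodes, 3 were past 1.5-fold higher and 2 lower in WMI (over all members 3 and 2 of 24), with a median log2 ratio of 0.24 (0.15 over all members). *Nkx2-2* was at 76.0 and 151 CPM in Control and WMI, a log2 ratio of 0.99 (0.56 to 1.45), and *Sox4*, which marks immature cells, at 38.7 and 85.9 CPM (1.15, 0.55 to 1.80). *Hdac1*, a histone deacetylase, was at 40.2 and 67.5 CPM (0.75, 0.15 to 1.40), but over all members its ratio was 0.24. *Nkx2-2* was found, after thinning to 1000 UMIs, in 6.19% of Control and 16.3% of WMI pre-OL-like barcodes, against 5 of 2011 (0.249%) and 2 of 1439 (0.139%) *Slc17a7* barcodes. Without thinning these shares were 28.3% and 46.2% of pre-OL-like and 1.29% and 3.68% of *Slc17a7* barcodes, so that the unthinned background was also higher in WMI, and its part in the difference was not tested. *Zfp536* (chr7:37472135-37773641), a zinc-finger repressor, was lower in WMI at 379.8 and 209 CPM (-0.86, -1.08 to -0.63), and *Bcl11a* at 210.0 and 132 CPM (-0.67, -0.97 to -0.37). With equal bins of late share *Zfp536* stood at -0.53, under the 1.5-fold size. *Zfp536* was at 187 and 182 CPM in OPC barcodes, where it did not differ by this size.

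*Sox10* (chr15:79154908-79165240), the factor that defines the lineage, was at 253 and 181 CPM in Control and WMI pre-OL-like barcodes, a log2 ratio of -0.48 (-0.74 to -0.21). Over all members it was at 193 and 109 CPM (-0.83), and in pre-OL-like barcodes with Y-linked UMIs only the ratio was -0.10. The lower level of *Sox10* in WMI therefore differed in size with the barcodes counted, and was smallest in those with Y-linked UMIs only. *Myrf*, *Olig1*, *Olig2* and *Sox8* had intervals that included 0 in pre-OL-like barcodes (*Myrf* at 124 and 114 CPM).

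**Figure D4:**
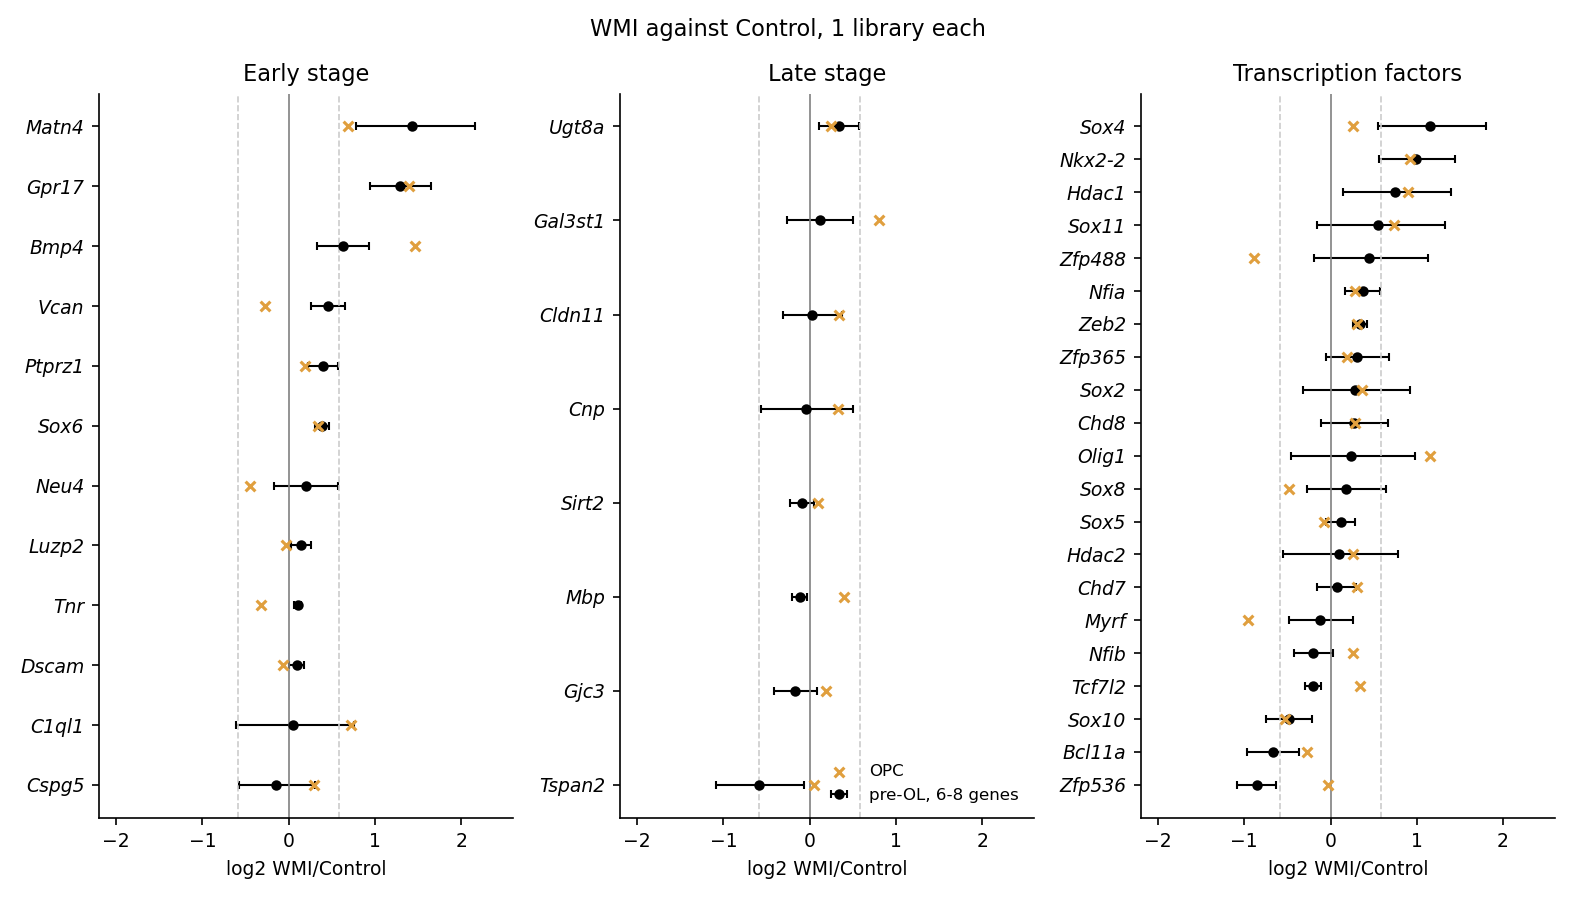
log2 ratio of WMI to Control (x axis) for 12 early genes, 8 of the 9 late genes and 21 lineage transcription factors measured in pre-OL-like barcodes (black, with exact 95% intervals of 1 library each) and in OPC barcodes (crosses). Dashed lines mark 1.5-fold. *Gpr17* (1.29) and *Nkx2-2* (0.99) lie to the right in both stages, *Zfp536* (-0.86) to the left in pre-OL-like barcodes, and most late genes near 0.

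Late myelin genes were near equal in pre-OL-like barcodes of both libraries. Of 9 measured, 0 were past 1.5-fold in either direction, with a median log2 ratio of -0.09. *Mbp*, myelin basic protein, was at 2073 and 1914 CPM in Control and WMI, with a log2 ratio of -0.12 (-0.20 to -0.03). *Cldn11*, the tight junction gene of the sheath, was at 139 and 141 CPM, and *Ugt8a*, which makes galactosylceramide, at 283 and 358 CPM (0.34, 0.11 to 0.58). Over all members 1 of 9, *Tspan2*, was past 1.5-fold lower (-0.85, -1.29 to -0.39). The mature genes that the rule limits were lower still in WMI: *Mobp* was at 142 and 31.2 CPM (-2.18, -2.65 to -1.72) and *Mag* at 234 and 167 CPM (-0.48, -0.76 to -0.20), the limit of the rule acting on both libraries. In *Slc17a7* barcodes *Mobp* was also lower in WMI (-1.44). Among the rule genes themselves, *Bcas1* (3199 and 3162 CPM) and *St18* (1798 and 1809 CPM) were level in pre-OL-like barcodes, while *Bcas1os2*, which runs antisense to *Bcas1*, was at 289 and 128 CPM (-1.18).

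Genes of committed, newly formed OLs leaned to Control. Of 21 measured over all members, 0 were past 1.5-fold higher and 8 lower in WMI, where 3.57% of all genes were lower (*Rras2*, *Cnksr3*, *Cemip2*, *Lims2*, *Frmd4a*, *Chn2*, *1700047M11Rik* and *Parvb*), with a median log2 ratio of -0.39. In pre-OL-like barcodes 3 of 20 were past this size (*Rras2*, *Cemip2* and *Lims2*), with a median of -0.27. *Frmd4a* was at 14712 and 10637 CPM in Control and WMI pre-OL-like barcodes (-0.47, -0.50 to -0.43), *Rras2*, a small GTPase, at 150.4 and 64.3 CPM (-1.23, -1.61 to -0.84) and *Chn2*, a Rac GTPase-activating protein, at 1230.3 and 895 CPM (-0.46, -0.58 to -0.34). *Fyn* was level, at 3198 and 3048 CPM. The summed level of the list was 33444 and 27930.2 CPM in pre-OL-like barcodes, of which *Frmd4a* alone gave 14712 and 10637 CPM. With the 3 bins of late share weighted equally, *Rras2* stood at -0.69 and *Frmd4a* at -0.68, but *Cemip2*, at 115 and 45.9 CPM without weights, turned to 0.61 and *Cnksr3* to 0.053. Over all members *Parvb* turned to 0.45 under the same weights.

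Cholesterol synthesis, the supply on which myelin membrane depends, was measured through 8 genes of 23 listed, and the log2 ratio was below 0 for all 8 over all members, with a median of -0.57. Past 1.5-fold lower were 4 of them, among which were *Fdft1* (squalene synthase), *Cyp51* and *Msmo1*. In pre-OL-like barcodes 2 genes had at least 100 UMIs, and 0 of these were past 1.5-fold. *Fdft1* was at 49.8 and 26.7 CPM in Control and WMI members (-0.90, -1.37 to -0.40) and *Hmgcs1*, which makes the first committed precursor, at 44.2 and 30.8 (-0.52, -1.01 to -0.01). The sum of the 23 genes was 595 and 386 CPM in members and 576 and 349 in pre-OL-like barcodes. It was also lower in WMI in *Slc17a7* barcodes, at 411 and 335 CPM, and in barcodes with microglia markers, at 455 and 358. Counts were low here, and with members thinned to 1000 UMIs *Hmgcs1* was at 0.42. Fatty acid and glycolipid genes showed no such lean, with 0 of 16 past 1.5-fold and a median of -0.04.

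Cytoskeletal and adhesion genes held a few of the larger differences. Of 21 genes of cytoskeleton and process growth, 0 were past 1.5-fold higher and 4 lower over all members, *Tppp*, *Sept4*, *Tubb4a* and *Map7*, all linked to microtubules or septins, and in pre-OL-like barcodes 0 of 19 were higher and 2 lower. *Tppp*, which organises microtubules in OL processes, was at 46.2 and 23.4 CPM in pre-OL-like barcodes (-0.98, -1.65 to -0.29) and *Map7* at 214 and 126 CPM (-0.76, -1.06 to -0.46). With members thinned to 1000 UMIs *Tppp* stood at -0.25, under the 1.5-fold size. *Wasf1*, an activator of actin branching, was at 279 and 383 CPM (0.46, 0.23 to 0.69). Of 24 adhesion and axon contact genes, 2 were past 1.5-fold higher and 2 lower over all members, and in pre-OL-like barcodes 1 of 20 was higher and 3 lower. *Sema4d*, a semaphorin of OLs, was at 629 and 371 CPM in pre-OL-like barcodes (-0.76, -0.93 to -0.59) and *Lpar1*, a lysophosphatidic acid receptor, at 113 and 67.1 CPM (-0.76, -1.16 to -0.34), with *Sema4d* at -0.48 under equal bins of late share, while *Cadm2* was level at 8276 and 8249 CPM. *Itga6*, a laminin receptor subunit, was at 7.45 and 30.8 CPM (2.05, 0.75 to 3.72), from 5 and 67 UMIs.

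Receptors and channels were measured as 3 lists. Of 17 growth factor receptors, 5 were past 1.5-fold higher over all members, where 10.0% of all genes were, and 2 of 11 in pre-OL-like barcodes, with 1 lower. *Erbb4*, a neuregulin receptor, was at 2286 and 2457 CPM in pre-OL-like barcodes (0.10, 0.02 to 0.19), *Il6st*, the shared subunit of the interleukin-6 family receptors, at 25.3 and 43.2 CPM (0.77, 0.01 to 1.61) and *Thrb*, a thyroid hormone receptor, at 304 and 199 CPM (-0.61, -0.85 to -0.36). *Tgfbr2* had 12 and 225 UMIs over all members (2.22, 1.38 to 3.19) and is also a gene of myeloid cells, whose RNA is given below. Of 27 glutamate, GABA and purine receptor genes 2 were past 1.5-fold higher over all members and 0 lower, with a median of -0.01. In pre-OL-like barcodes 0 of 25 were higher and 2 lower, with a median of -0.15. *Gria2*, an AMPA receptor subunit, was at 2169 and 1665 CPM in pre-OL-like barcodes (-0.38, -0.47 to -0.29). Of 21 ion channel genes 0 were higher and 2 lower over all members, where 3.57% of all genes were lower, and 0 higher and 4 lower of 19 in pre-OL-like barcodes, where 4.69% of all genes were lower. *Kcna1*, a potassium channel, was at 68.5 and 26.6 CPM (-1.36, -1.95 to -0.77).

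The endothelin system, in which the ligand endothelin-1 acts on OPCs through the receptor *Ednrb*, was sparse in members. *Ednrb* had 33 and 127 UMIs in Control and WMI members, 30.4 and 29.0 CPM, a log2 ratio of -0.07 (-0.63 to 0.53), an interval that spans 0, and at these counts a difference could not be seen. In pre-OL-like barcodes it had 7 and 43 UMIs, 10.4 and 19.8 CPM (0.92, -0.24 to 2.32), against 76.8 and 116 CPM in OPC barcodes and 7.58 and 8.40 in *Slc17a7* barcodes. *Ednrb* was thus lower in pre-OL-like than in OPC barcodes in both libraries. Astrocyte markers moved with this difference, at 4182 and 3993 CPM in OPC and 1405 and 1005 in pre-OL-like barcodes, and their part in it was not tested. The ligands *Edn1* and *Edn2* were at 0 UMIs in members of both libraries and *Edn3* at 0 and 2. *Ednra*, the other receptor, had 18 and 78 UMIs (16.6 and 17.8 CPM), and *Ece1*, the converting enzyme, was at 65.4 and 51.6 CPM (-0.34, -0.73 to 0.06). Of the 2 genes of the system with at least 100 UMIs, 0 were past 1.5-fold.

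RNA of division and of the death programme was sparse in members. *Mki67*, a marker of dividing cells, had 6 and 27 UMIs in Control and WMI members and *Top2a* 9 and 45. *Top2a* was found in 1 of 113 Control (0.885%) and 5 of 355 WMI (1.41%) pre-OL-like barcodes, against 7.24% and 9.50% of OPC barcodes. With each barcode thinned to 1000 UMIs it was found in 0 of 113 Control barcodes, which allows a share of barcodes with a UMI of up to 2.65%, in 0.282% of WMI pre-OL-like barcodes and in 4.61% and 3.00% of OPC barcodes. Of 5 cell cycle genes with at least 100 UMIs 1, *Ccnd2*, was past 1.5-fold higher over all members, and in pre-OL-like barcodes it was at -0.15. Of 10 genes of apoptosis and survival 3 were past 1.5-fold higher and 0 lower, among them *Mcl1*, an inhibitor of apoptosis, at 11.1 and 22.2 CPM in members (1.00, 0.13 to 2.00).

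The largest ratios belonged to RNA that other barcodes of the WMI library also held. Microglia markers summed to 146 and 682 CPM in Control and WMI pre-OL-like barcodes and to 139 and 367 in *Slc17a7* barcodes, where they should be absent, and 10 of 10 were past 1.5-fold higher over all members. Activated myeloid markers summed to 216 and 1591 CPM in pre-OL-like and 154 and 939 in *Slc17a7* barcodes. *Apoe*, the apolipoprotein of astrocytes and myeloid cells, was their most abundant gene, at 81.9 and 848 CPM in pre-OL-like barcodes (3.37, 2.98 to 3.79) and a log2 ratio of 3.02 in *Slc17a7* barcodes. *Spp1* (osteopontin) had 0 and 122 UMIs in pre-OL-like barcodes, at least 12.5-fold higher in WMI, counted against a floor of 3 UMIs in the Control library. Of the genes of injury-responsive OLs, 5 of 5 were past 1.5-fold higher (*Apoe*, *Cd63*, *Gfap*, *Spp1* and *Stat3*), and their part as transcripts of the pre-OLs themselves was not tested. *B2m* and *Stat2* were the only genes of interferon and antigen presentation with at least 100 UMIs, and *B2m* was at 8.94 and 42.3 CPM in pre-OL-like and 8.59 and 24.2 in *Slc17a7* barcodes.

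Mitochondrial transcripts moved in the same direction. All 10 measured were past 1.5-fold higher in WMI members, and their sum was 2014 and 10566 CPM in Control and WMI pre-OL-like barcodes and 1333 and 4429.7 in *Slc17a7* barcodes. *mt-Nd3*, a subunit of complex I, was at 37.2 and 394 CPM (3.40, 2.83 to 4.04). Leaving these genes and *Malat1* out of the total shifted each log2 ratio by 0.01. Of 16 hypoxia and integrated stress genes 1, the metallothionein *Mt1*, was past 1.5-fold higher, with a median of 0.18. *Vegfa*, a target of hypoxia signalling, was at 35.9 and 28.3 CPM in members (-0.34, -0.87 to 0.21). Of 11 iron and oxidative handling genes, 4 were higher and 1 lower, with the ferritin chains *Fth1* at 23.8 and 74.9 and *Ftl1* at 14.9 and 73.5 CPM in pre-OL-like barcodes. In *Slc17a7* barcodes *Fth1* was at 43.6 and 62.0 and *Ftl1* at 8.37 and 27.4 CPM.

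RNA of astrocytes followed this pattern only in part and that of neurons did not. Over all members 2 of 7 astrocyte markers, *Aqp4* (14.7 and 49.8 CPM, 1.76, 1.02 to 2.59) and *Gja1*, were past 1.5-fold higher and 0 lower, with a median of 0.23, while in pre-OL-like barcodes 0 of 4 were higher and 1 lower. *Gfap*, an astrocyte filament gene counted above with the genes of injury-responsive OLs, had 1 and 118 UMIs in Control and WMI pre-OL-like barcodes and 5 and 438 in all members, with a log2 ratio over all members of 4.44 (3.21 to 6.07), and was at 1.67 and 25.4 CPM in *Slc17a7* barcodes. Astrocyte markers summed to 1405 and 1005 CPM in Control and WMI pre-OL-like barcodes, with *Slc1a2*, the glutamate transporter, at 497 and 293. In the same barcodes pan-neuronal markers summed to 11182 and 9213 CPM, with 0 of 10 past 1.5-fold. Excitatory markers summed to 939.9 and 751 CPM, with 0 of 6 past 1.5-fold higher and 2 lower (1 of 6 lower over all members), and inhibitory markers to 2809 and 3006 CPM, with 0 of 4 higher and 1 lower (0 of 5 past this size over all members). Vascular markers had 0 genes with at least 100 UMIs and summed to 25.3 and 22.5 CPM.

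**Figure D5:**
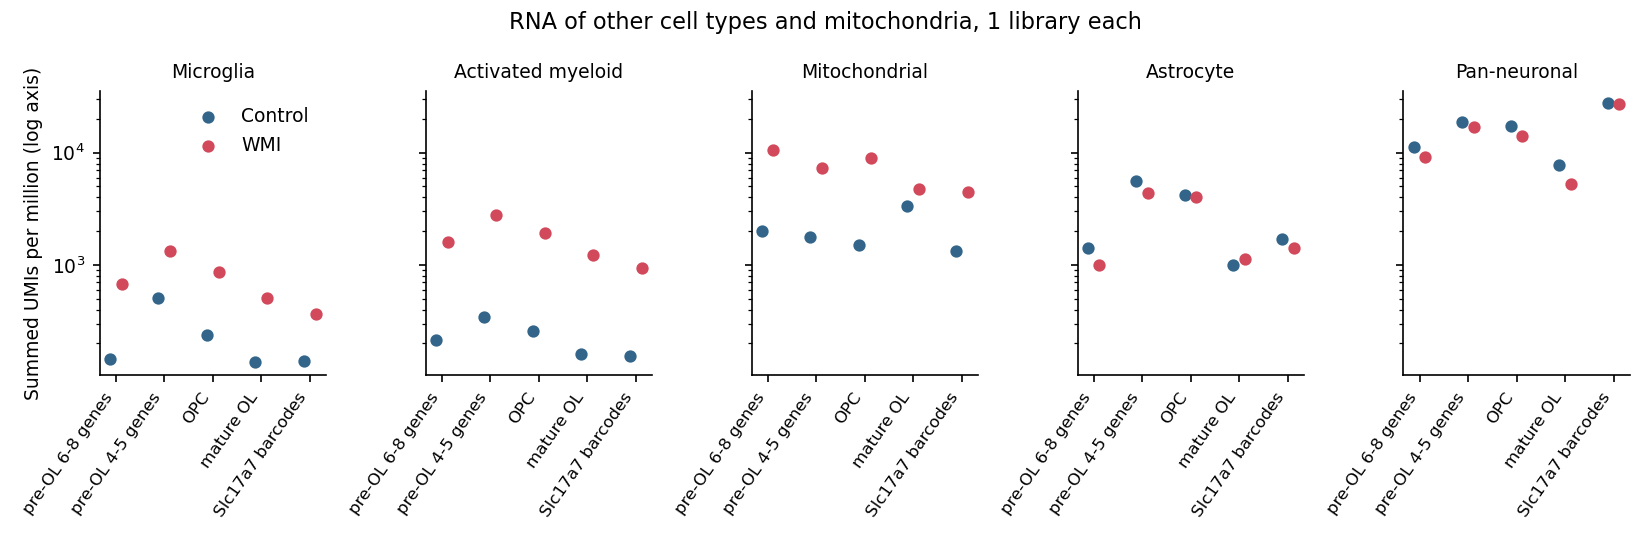
Summed level of marker lists of other cell types and of mitochondrially encoded genes (y axis, CPM, log axis) in 5 sets of barcodes (x axis) of the Control and WMI libraries, 1 point for each library. Microglial, activated myeloid and mitochondrial RNA is higher in WMI in every set shown, *Slc17a7* barcodes included, and astrocyte RNA is highest in members with 4 or 5 rule genes.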

How the data were processed

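Per the file headers, the counts deposited by the authors are UMI counts for each gene and barcode from Cell Ranger 6.1.1, 1 matrix for each of 2 libraries. The processing notes of the submitters name Seurat and mm9, whereas all 55450 gene IDs match GENCODE M21 on GRCm38. Strand use in counting is not given in the sources used here. Barcodes were kept with at least 1000 UMIs, at least 500 genes and at most 10% mitochondrial UMIs (748 Control and 241 WMI barcodes removed), which left 65903854 and 60342143 UMIs. Genes were counted by ID, since 217 IDs share a symbol with another. Doublets were predicted in each library from simulated pairs at 0.8% per 1000 barcodes (728 and 527 barcodes) and were kept, except in an alternative.

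Raw UMIs were summed over the barcodes of a set in each library. Intervals were exact at 95% (Poisson for levels, Clopper-Pearson for shares, conditional binomial for ratios). Counts of genes past 1.5-fold, the size called, used only genes whose UMIs in the 2 libraries came to 100 or more, other filters of the alternatives aside. Ratios of single named genes are also given below this number, as for *Itga6*, *Ednrb* and *Tppp* in pre-OL-like barcodes. A gene at 0 in a library was set against a floor of 3 UMIs. Clusters used 2000 variable genes without the rule genes, 30 principal components, 30 neighbours and the Leiden method at resolution 1. Scripts were tested on simulated data. Tools were Python 3.11.15 with numpy 2.4.6, pandas 2.3.3, scipy 1.17.1, scikit-learn 1.9.0, leidenalg 0.10.2 and matplotlib 3.10.9.

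The members and the 34 lists of 551 genes were chosen with earlier results of these data known. Named were the rule genes, stage genes and transcription factors, in each other list the gene with the highest level, the highest and the lowest ratio, the endothelin system, the 10 highest and 10 lowest ratios between the libraries, and the 15 genes highest over both neighbouring stages. Some genes of these lists are not reported here. Alternatives were other thresholds of the rule, thinning to equal depth, doublets left out, sex, weights of cells, scaling, stage mix and count filters.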

Additional observations from a re-analysis of the deposited data

How the results depend on the processing

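No paired analysis was possible because each condition had 1 library, and for the same reason no replicate was left out. Leaving out members with 3 or more UMIs of astrocyte, microglia, activated myeloid or vascular markers gave no value, since this left 6 Control and 0 WMI members. The alternatives with 6 or more rule genes, with OL-lineage clusters and without microglia markers were chosen after seeing the data. In every alternative run, the member share and the premyelinating share of the lineage stayed higher in WMI and the late share lower. The cause of the changes below was not tested.

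The ratio of member shares (4.56) was 3.51 after thinning, 3.42 with at least 3 rule genes, 3.80 in barcodes with Y-linked UMIs only, 3.69 with at least 6 genes, 3.21 with both 6 genes and thinning, 3.73 in OL-lineage clusters and 2.77 with at least 6 genes and fewer than 4 microglia markers. The ratio of premyelinating shares of the lineage (1.70) was 1.22 with at least 3 genes. The difference in late share (-2.51 points) was -3.32 with at least 5 genes, -3.43 with at least 6, -3.35 with at least 6 and Y-linked UMIs only, and -1.61 when cells were weighted equally.

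Of the same 7289 genes, the 729 higher in WMI became 1656 with members thinned to 1000 UMIs and 1194 with at least 6 rule genes and equal weights for the bins of late share. The 260 lower became 487 with Y-linked UMIs only, 499 with at least 6 genes, 549 with at least 6 genes and fewer than 4 microglia markers, 428 in OL-lineage clusters, 789 with at least 6 genes and Y-linked UMIs only, 803 after thinning and 432 with at least 6 genes and equal weights. A filter of 200 UMIs left 337 higher and 105 lower of 4596 genes, and a filter of 1 UMI in both libraries gave 3153 and 3507 of 18294.

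Of 189 named genes, 76 crossed 0 over the 14 settings, and 9 of these were past 1.5-fold over all members. These 9 are given here. With at least 6 genes and equal bins *Ccnd2* stood at -0.069, *Cemip2* at 0.61, *Cnksr3* at 0.053 and *Rnf43* at 0.39. With at least 6 genes *Ccnd2* stood at -0.15, and without microglia markers *Ccnd2* at -0.22, *Notch2* at -0.16, *P2ry12* at -0.27 and *Rhbdl2* at 0.066. With equal bins over all members *Parvb* stood at 0.45, and after thinning *Sod2* at 0.21. Of genes past 1.5-fold in pre-OL-like barcodes, Y-linked UMIs only left *Bmp4* at 0.46, *Fdft1* at -0.062, *Hmgcs1* at -0.56, *Lhfpl3* at 0.51 and *Miat* at -0.39, all under that size. Of those past it over all members, thinning left *Mcl1* at 0.46 and *Nr4a1* at 0.16, and OL-lineage clusters left *Stat3* at 0.21. Over 14 settings *Gpr17* ranged from 0.96 to 1.37, *Nkx2-2* from 0.71 to 1.20, *Matn4* from 0.93 to 1.69, *Bmp4* from 0.29 to 0.81, *Sox10* from -1.04 to -0.10, *Zfp536* from -1.03 to -0.53 and *Sema4d* from -0.92 to -0.48. The median of the early genes ranged from -0.09 to 0.36, that of the late genes from -0.34 to 0.06, that of the committed genes from -0.44 to -0.09 and that of cholesterol synthesis from -0.69 to -0.32. The Control library held 1084851 member UMIs against 4377638 in WMI.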

Other observations

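Several transcripts with little known function had the lowest ratios in pre-OL-like barcodes. *9130019P16Rik* was at 161 and 36.3 CPM in Control and WMI (-2.15, -2.59 to -1.72), *4930444A19Rik* at 99.8 and 25.3 CPM (-1.98, -2.52 to -1.45) and *Gm13187*, which lies within *Frmd4a*, at 328 and 91.0 CPM (-1.85, -2.13 to -1.57). These transcripts were also lower in WMI in *Slc17a7* barcodes (-0.95, -0.58 and -1.31). In barcodes with microglia markers their log2 ratios were -2.07, -1.74 and -0.58, the last with an interval that included 0. *Chst8*, a sulfotransferase of N-acetylgalactosamine, was at 177 and 51.9 CPM (-1.77, -2.16 to -1.39), and *Creb5*, a transcription factor of the CREB family, at 73.0 and 24.3 CPM (-1.58, -2.17 to -0.99). With equal bins of late share *Creb5* stood at -0.33, under the 1.5-fold size, and 44 of its 49 Control UMIs lay in the last bin. *Mobp*, a rule gene, stood lowest.

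Of the Notch, Wnt and BMP pathway 11 genes of 31 had at least 100 member UMIs, with *Notch2* higher in WMI members (12.9 and 28.3 CPM, 1.13, 0.33 to 2.05) and *Rnf43*, an inhibitor of Wnt receptors, lower (60.8 and 28.8 CPM, -1.08, -1.52 to -0.63). Both turned with the barcodes counted, *Notch2* from 0.50 in pre-OL-like barcodes to -0.16 in those without microglia markers, and *Rnf43* from -0.52 in pre-OL-like barcodes to 0.39 with equal bins of late share. *Nr4a1* was the immediate-early gene with enough UMIs (13.8 and 21.5 CPM, 0.64, -0.16 to 1.53). Of 11 nuclear long noncoding RNAs 3 were past 1.5-fold higher over all members, *Xist*, *Neat1* and *Pvt1*, and in pre-OL-like barcodes *Miat* (232 and 145 CPM, -0.68, -0.96 to -0.40) and *Mirg* (86.4 and 54.2 CPM, -0.67, -1.14 to -0.19) were lower. *Lhfpl3*, a precursor gene that the rule limits, was at 977 and 1715 CPM in pre-OL-like barcodes (0.81, 0.69 to 0.93).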
